A study of Macaca fascicularis with 11 samples.

Results

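Cytosines on unplaced sequence are those that the deposited methylation table of 11 Cynomolgus macaques lists under a name that begins with scaffold, or under chrUr, in place of a numbered chromosome or chromosome X. Membership follows from the name of the sequence alone. They numbered 6223 of the 61399 listed cytosines (10.1%), of which 5857 lay on 613 scaffolds and 366 on chrUr, and they were set against the 54584 cytosines on chr1 to chr20. A draft genome is assembled from short pieces, and a scaffold is a joined stretch of such pieces that could not be given a place on a chromosome. Repeated and duplicated sequence is hard to place and often ends up on such scaffolds, where reads from near-identical copies may be aligned to the same position. In mammalian DNA, most methylation is on the cytosine of a CpG, CpG-dense promoters are usually unmethylated, and CpGs elsewhere are mostly methylated.

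The series consists of 11 muscle biopsies, taken from the quadriceps of 11 adult male animals, which form 1 group with no treatment compared. Methylation was measured by reduced representation bisulfite sequencing (RRBS), in which DNA is cut at CpG-containing restriction sites, treated with bisulfite and sequenced, and in which only methylated cytosines are still read as cytosine. The methods of the paper give 1 µg of DNA per library, digestion with MspI and the EpiTect kit; the labels of the samples state 5 µg, TaqαI in addition to MspI, and conversion with EZ-96 Methylation-Gold. The value of each cytosine in each animal is a methylation ratio from 0 to 1, which is given here as a percentage. Read counts were not used, so the depth behind a ratio is unknown beyond the minimum coverage of 10 reads that the methods state, and no counting interval is given. Positions are those of the authors' Cynomolgus genome of Yan et al., for which no sequence, scaffold length or gene annotation was used here, so scaffolds are described by their listed cytosines alone. The animal numbers over the columns could not be linked to single sample labels, and each column was taken as 1 animal of the group.

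The 11 animals differed in how often a ratio was exactly 0, and this applied to unplaced sequence as well. Over the whole table the share was 12.5% in animal 2606, 13.5% in animal 2646, 13.9% in animal 5296 and 14.3% in animal 5272, and from 22.0% to 28.4% in the other 7. On unplaced sequence it ranged from 10.6% in animal 2606 to 26.7% in animal 2666, with a median of 22.0%. Because these 4 libraries stood apart, the tested results were also computed without them, an alternative chosen after seeing the data. The direction and the side of the 0.05 threshold of all 12 tested results were the same in the remaining 7 animals. The exact permutation test of the remaining animals gave an adjusted p of 0.017 (n = 7) for 11 of the 12, the smallest that these 12 tests allowed, and the other result is named below. Depth per library was not used here, and its part in these shares was not tested.

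Listed cytosines lay closer together on unplaced sequence than on the chromosomes. The median distance from a cytosine to the next listed cytosine, on either strand, was 7 bp on unplaced sequence, against 11 bp on chr1 to chr20. Of these steps, 88.2% were at most 100 bp on unplaced sequence and 74.9% on chr1 to chr20. Steps were counted only within a sequence, 5609 on unplaced sequence and 54564 on chr1 to chr20. The last cytosine of each of the 614 unplaced sequences has no step. These shares are therefore not of all cytosines, and they overstate the contrast. Cytosines joined by steps of at most 100 bp, on either strand, are called a run here. Unplaced sequence held 1278 runs with a mean of 4.87 cytosines, and chr1 to chr20 held 13716 runs with a mean of 3.98. The excess was in long runs: 36 runs of 20 or more cytosines held 18.1% of the unplaced cytosines, whereas 51 such runs held 2.78% of those on chr1 to chr20. On chrUr the runs were longer still, with 23 runs of 15.9 cytosines on average, and 7 of them with 20 or more cytosines held 62.6% of its cytosines. The strands were listed about equally, with 50.2% of the unplaced cytosines on the plus strand. Both cytosines of a CpG were listed at 827 of the 5396 CpGs on unplaced sequence (15.3%), at 115 of the 251 CpGs on chrUr (45.8%) and at 3165 of the 51419 CpGs on chr1 to chr20 (6.16%). These counts and distances describe the table and have no spread over animals, since every listed cytosine has a value in all 11.

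Most scaffolds contributed few cytosines. The median scaffold had 5 listed cytosines (quartiles 3 and 11), 74 scaffolds had 1 and 74 had 20 or more. Those 74 larger scaffolds held 2662 cytosines, or 45.4% of all on scaffolds. On 371 scaffolds (60.5%) all listed cytosines formed a single run, and on 420 they spanned at most 1000 bp, with a median span of 71 bp over all scaffolds. These counts include the 74 scaffolds with 1 cytosine, which form a single run by definition. Mean methylation over animals was 39.4% ± 1.23 (SD, n = 11) on scaffolds with 1 cytosine and 40.4% ± 0.642 (SD, n = 11) on those with 2 to 4. It was lower, 31.2% ± 0.809 (SD, n = 11), on the 154 scaffolds with 5 to 9 cytosines and 30.6% ± 0.841 (SD, n = 11) on the 111 with 10 to 19, and it was 36.6% ± 1.12 (SD, n = 11) on the 74 with 20 or more. The number of listed cytosines and the level therefore had no single order.

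Methylation also differed with the length of the run in which a cytosine lay. On unplaced sequence, cytosines in runs of 5 to 9 had the lowest mean, 30.2% ± 0.753 (SD, n = 11), and 65.4% of them were below 0.3 in their mean over animals. Cytosines in runs of 20 or more had the highest mean, 38.9% ± 2.36 (SD, n = 11), with a wide range over animals, from 35.2% to 42.3%. In those long runs 23.2% of the cytosines were intermediate, against 11.0% in runs of 5 to 9. Cytosines that stood alone were intermediate in 26.7% of cases. On chr1 to chr20, cytosines in runs of 20 or more had a mean of 34.6% ± 2.63 (SD, n = 11), and 18.6% of them were intermediate. The long runs of the scaffolds alone were intermediate in 20.1% of their cytosines and those of chrUr in 35.4%, so most of the excess over chr1 to chr20 was on chrUr. The difference in level by run length was not tested.

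**Figure D1:**
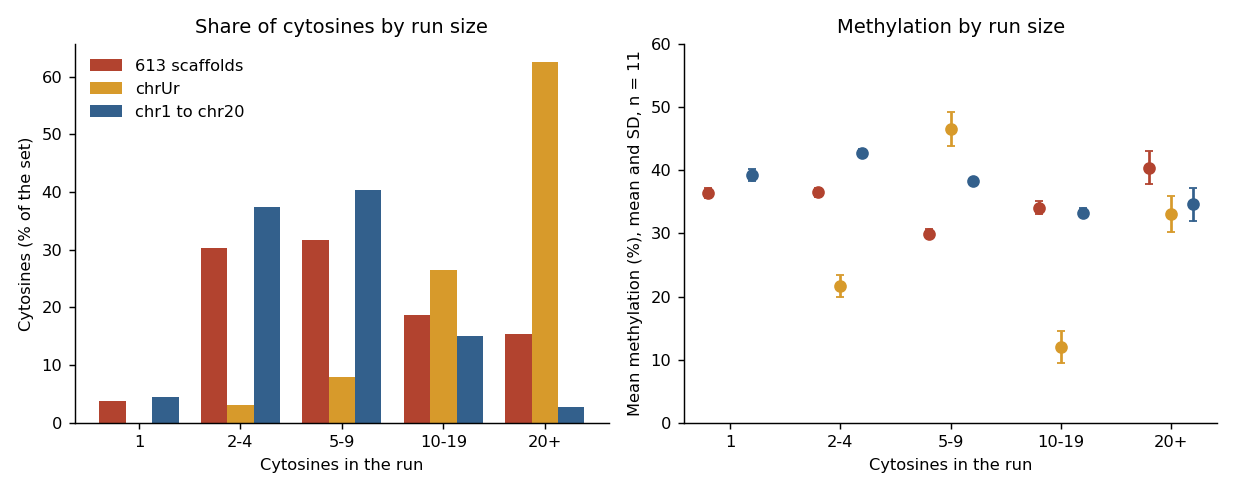
Share of cytosines by the number of cytosines in their run (left, % of the cytosines of each set) and mean methylation in % by run size (right, points are the mean of 11 animals and bars the SD), for the 613 scaffolds, chrUr and chr1 to chr20. Runs of 20 or more cytosines hold 62.6% of the cytosines of chrUr, 15.3% of those on scaffolds and 2.78% of those on chr1 to chr20.

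The first comparison asks whether unplaced cytosines were methylated to the same degree as those on the chromosomes of the same animals. Mean methylation on unplaced sequence was 34.2% ± 0.911 (SD, n = 11), with 33.0% in the lowest animal, 34.2% in the median and 35.6% in the highest. On chr1 to chr20 it was 39.2% ± 0.581 (SD, n = 11), so that the 2 ranges did not overlap. The difference, unplaced minus chr1 to chr20, was -4.98 ± 0.492 percentage points (SD) and was negative in 11 of 11 animals (two-sided permutation test on paired values with all 2048 sign changes, p = 0.000977, the smallest that 11 animals allow; Benjamini-Hochberg adjusted p = 0.00107 over 12 tests). All animals share the same listed cytosines, so this p and those below measure agreement between animals, not variation between sequences. The difference of -4.98 depended on chromosomes 10 and 11, which had the highest means of the 20 chromosomes, 63.7% ± 0.347 (SD, n = 11) and 52.0% ± 0.318 (SD, n = 11). Without chromosome 10 it was -0.646 ± 0.433 percentage points (SD, n = 11, permutation test, adjusted p = 0.00134), and without chromosomes 10 and 11 its direction turned, to 0.877 ± 0.422 percentage points (SD, n = 11, permutation test, adjusted p = 0.00107). With each scaffold and each chromosome averaged and counted once, the means were 35.8% on both sides, and the difference was 0.0124 ± 0.360 percentage points (SD, n = 11, permutation test, adjusted p = 0.914). Over the 21 alternatives the difference ran from -6.82 to 0.877 percentage points and the adjusted p from 0.00107 to 0.914. In order of mean methylation, unplaced sequence came after 11 of the 20 chromosomes and before 9. Its nearest neighbours in that order were chromosome 14 with 34.1% ± 0.809 (SD, n = 11) and chromosome 19 with 35.7% ± 0.792 (SD, n = 11), and the means of unplaced sequence and chromosome 14 lay within 1 SD of each other.

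The shares of cytosines by level gave a clearer contrast, which held at the intermediate end and, less firmly, at the high end. Ratios from 0.3 to 0.7 made up 16.4% ± 1.08 (SD, n = 11) of the unplaced cytosines of an animal, from 14.7% in the lowest animal to 17.6% in the highest. On chr1 to chr20 the share was 13.2% ± 0.608 (SD, n = 11), with 14.1% in the highest animal. The difference was 3.22 ± 0.920 percentage points (SD), positive in 11 of 11 animals (permutation test, adjusted p = 0.00107), and it was 3.71 ± 0.908 without chromosome 10. It shrank to 0.904 ± 0.532 percentage points (SD, n = 11) with each run averaged and counted once, still positive in 11 of 11 animals (permutation test, adjusted p = 0.0014). Over the 22 alternatives it ran from 0.904 to 4.58 percentage points, with adjusted p from 0.00107 to 0.017. Unplaced sequence therefore held more intermediate cytosines under each alternative that was run, and the size of the excess depended on whether cytosines or runs were counted. Ratios above 0.7 made up 25.1% ± 0.517 (SD, n = 11) of the unplaced cytosines and 32.6% ± 0.201 (SD, n = 11) of those on chr1 to chr20. That difference was -7.48 ± 0.549 percentage points (SD), negative in 11 of 11 animals (permutation test, adjusted p = 0.00107), it was -2.70 ± 0.483 without chromosome 10, and it was -1.0 without chromosomes 10 and 11. Over the 22 alternatives it ran from -9.0 to -1.0 percentage points, with adjusted p from 0.00107 to 0.017. Highly methylated cytosines were thus less frequent on unplaced sequence as a whole with and without those chromosomes. For the scaffolds alone, without chrUr, the share was 25.9% ± 0.494 (SD, n = 11), from 25.2% to 26.8%. On chr1 to chr20 without chromosomes 10 and 11 it was 26.1% ± 0.216 (SD, n = 11), from 25.6% to 26.4%. These ranges overlapped, and this pair of shares was not tested. Ratios below 0.3 made up 58.6% ± 1.17 (SD, n = 11) of the unplaced cytosines and 54.3% ± 0.524 (SD, n = 11) of those on chr1 to chr20. The difference of 4.26 ± 0.937 percentage points (SD), positive in 11 of 11 animals (permutation test, adjusted p = 0.00107), turned to -1.01 ± 0.917 without chromosome 10 and was negative in 9 of 11 animals (permutation test, adjusted p = 0.00879). Its 22 alternatives gave from -2.79 to 6.28 percentage points, with adjusted p from 0.00107 to 0.017. The difference was also negative, -2.59 ± 0.428, with each scaffold and chromosome counted once. Whether low cytosines were more frequent on unplaced sequence therefore depended on chromosome 10 and on how sequences were counted.

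**Figure D2:**
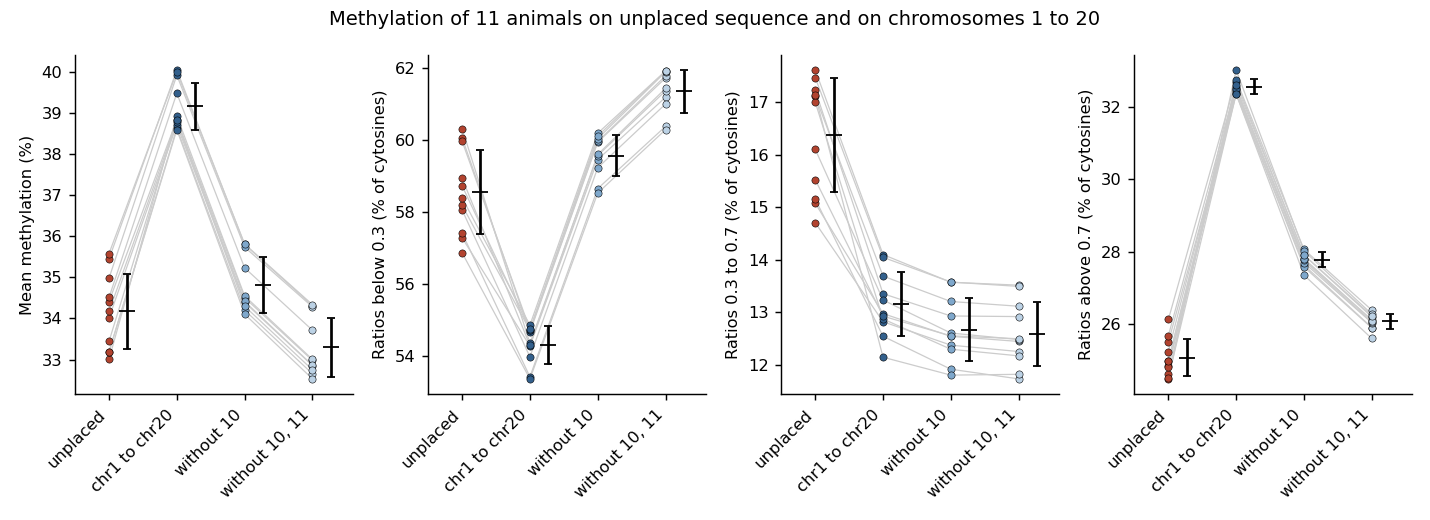
Mean methylation and the shares of ratios below 0.3, from 0.3 to 0.7 and above 0.7 (vertical axes, %) in each of the 11 animals, on unplaced sequence, chr1 to chr20, and chr1 to chr20 without chromosome 10 and without chromosomes 10 and 11. Points are animals, grey lines join the values of an animal, black marks are the mean and SD, and axes do not start at 0. Ratios from 0.3 to 0.7 are more frequent on unplaced sequence (16.4%) than on the 3 other sets (13.2%, 12.7% and 12.6%).

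By their mean over animals, 3678 unplaced cytosines were low (59.1%), 1001 intermediate (16.1%) and 1544 high (24.8%). The distribution had its main peak below 10%, with 45.7% of the unplaced cytosines, and a smaller one above 90%, with 12.6%. On chr1 to chr20 those shares were 44.9% and 18.7%. Unplaced cytosines were more frequent from 10% to 30%, with 7.38% and 6.01% in the steps of 10 percentage points, against 5.32% and 3.87% on chr1 to chr20. The lower part of the scale was therefore filled more evenly on unplaced sequence, and the step above 90% was filled less. Without chromosome 10 the chromosomes had 49.8% of their cytosines below 10% and 16.3% above 90%. The steps from 70% to 80% and from 80% to 90% then held 4.08% and 7.26%, below the 4.55% and 7.65% of unplaced sequence. Ratios of exactly 0 made up 20.0% ± 6.55 (SD, n = 11) of the unplaced cytosines and 21.4% ± 6.47 (SD, n = 11) of those on chr1 to chr20, with a paired difference of -1.46 ± 0.464 percentage points (SD), negative in 11 of 11 animals (permutation test, adjusted p = 0.00107). The spread of this share over animals was many times the difference, which is seen only within animals. It turned to 1.54 ± 1.10 percentage points (SD, n = 11, permutation test, adjusted p = 0.0026) without the 74 larger scaffolds, whereas it was -3.89 ± 0.831 without chromosome 10, and the adjusted p of its 20 alternatives ran from 0.00107 to 0.52. Ratios of exactly 1 made up 4.64% ± 1.07 (SD, n = 11) of the unplaced cytosines, against 6.67% ± 1.27 (SD, n = 11), a difference of -2.03 ± 0.411 percentage points (SD) that was negative in 11 of 11 animals (permutation test, adjusted p = 0.00107). Over its 20 alternatives this difference ran from -2.49 to -0.447 percentage points, the latter with each run counted once, with adjusted p from 0.00107 to 0.017.

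**Figure D3:**
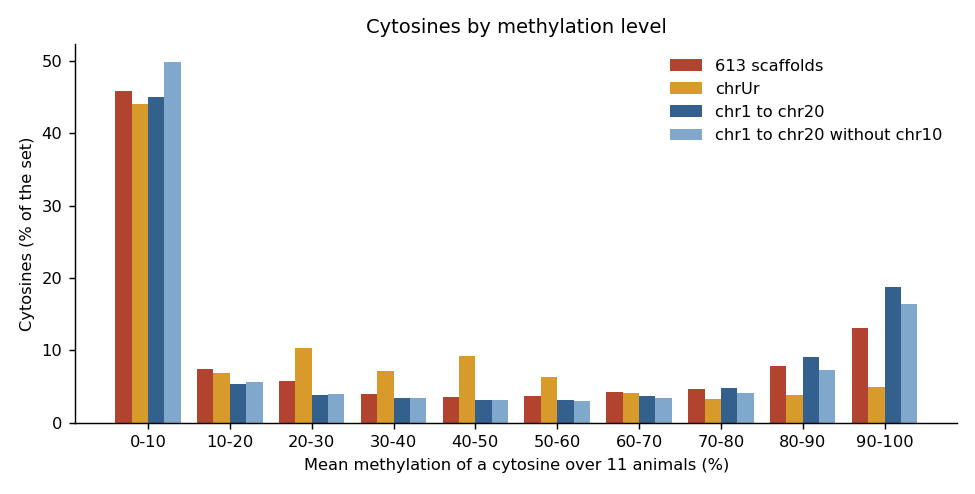
Cytosines in steps of 10 percentage points of their mean methylation over 11 animals (horizontal axis, %), as a share of all cytosines of the 613 scaffolds, of chrUr, of chr1 to chr20 and of chr1 to chr20 without chromosome 10 (vertical axis, %). The step from 90% to 100% holds 13.1% of the cytosines on scaffolds and 4.92% of those on chrUr, against 18.7% on chr1 to chr20.

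The sequence listed as chrUr, to which the labels give no further description, had fewer methylated and more intermediate cytosines than the scaffolds. Its mean methylation was 28.2% ± 2.46 (SD, n = 11), with 23.9% in the lowest animal, 29.3% in the median and 30.9% in the highest. On the scaffolds it was 34.5% ± 0.851 (SD, n = 11). The difference of -6.35 ± 1.94 percentage points (SD) was negative in 11 of 11 animals (permutation test, adjusted p = 0.00107). Intermediate ratios made up 27.3% ± 3.72 (SD, n = 11) of the cytosines of chrUr and 15.7% ± 1.08 (SD, n = 11) of those on scaffolds, while ratios above 0.7 made up 12.6% ± 1.15 (SD, n = 11) and 25.9% ± 0.494 (SD, n = 11). The mean and these shares of chrUr come from 366 cytosines in 23 runs over 411509 bp, so a few runs decide them. The shares were not tested, and the p of the mean does not measure variation between runs. The longest run, with 66 cytosines from position 298378 to 298827, had a mean of 37.0% ± 4.39 (SD, n = 11). Low runs stood at other places: 42 cytosines from 176149 to 176654 had a mean of 2.95% ± 1.31 (SD, n = 11), and 30 cytosines from 175620 to 175852 had a mean of 2.87% ± 1.42 (SD, n = 11). High runs were fewer and shorter, among them 20 cytosines from 193525 to 193689 with 77.9% ± 2.67 (SD, n = 11). The 7 intermediate runs lay at both ends and between, and at the start 14 cytosines from 81 to 134 had a mean of 44.7% ± 4.00 (SD, n = 11) and 26 from 304 to 412 a mean of 41.9% ± 5.26 (SD, n = 11). Of the 23 runs, 13 had a mean below 30%, 3 a mean above 70% and 7 a mean between.

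Local differences within an animal were compared in 2 ways. At CpGs with both strands listed, the strands differed on average by 10.7 ± 0.631 percentage points (SD, n = 11) on unplaced sequence and by 12.9 ± 0.363 (SD, n = 11) on chr1 to chr20. The difference of -2.20 ± 0.516 percentage points (SD) was negative in 11 of 11 animals (permutation test, adjusted p = 0.00107), and it was -0.907 ± 0.502 without chromosome 10. Without the 74 larger scaffolds it was -0.415 ± 0.665 percentage points (SD, n = 11) and no longer passed the threshold (permutation test, adjusted p = 0.0664). In the means over animals, the strands differed by more than 20 percentage points at 95 of the 827 unplaced CpGs (11.5%) and at 520 of the 3165 on chr1 to chr20 (16.4%). The 18 alternatives of the strand difference ran from -2.44 to -0.415 percentage points, with adjusted p from 0.00107 to 0.0664. Strand pairs were thus more alike on unplaced sequence, by an amount that depended on both chromosome 10 and the larger scaffolds. Consecutive cytosines on the same strand, at most 100 bp apart, differed by 9.51 ± 0.283 percentage points (SD, n = 11) on unplaced sequence, over 4725 pairs, and by 10.1 ± 0.212 (SD, n = 11) on chr1 to chr20. That difference of -0.567 ± 0.176 percentage points (SD), negative in 11 of 11 animals (permutation test, adjusted p = 0.00107), turned to 0.564 ± 0.178 without chromosome 10, positive in 11 of 11 (permutation test, adjusted p = 0.00134). The 18 alternatives for neighbours gave from -0.981 to 0.944 percentage points, with adjusted p from 0.00107 to 0.017. The direction for neighbours therefore depended on chromosome 10.

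The spread between animals was compared within classes of methylation level, since it depends on the level. Within the low and high classes, unplaced cytosines lay less often near the ends of the scale. Of the 3678 low unplaced cytosines 2845 had a mean below 10%, against 24531 of 29543 on chr1 to chr20. Of the 1544 high unplaced cytosines 785 had a mean above 90%, against 10200 of 17770. The part of this in the differences below was not tested. The distance of an animal from the average of the 10 remaining animals, without its sign, was averaged over the cytosines that those 10 put in the low, intermediate or high class, so the 11 values share animals and are not fully independent. At low cytosines it was 4.60 ± 0.333 percentage points (SD, n = 11) on unplaced sequence and 4.13 ± 0.199 (SD, n = 11) on chr1 to chr20, with a paired difference of 0.468 ± 0.291 (SD), positive in 11 of 11 animals (permutation test, adjusted p = 0.00107). At high cytosines it was 5.54 ± 0.362 percentage points (SD, n = 11) against 4.97 ± 0.337 (SD, n = 11), with a paired difference of 0.572 ± 0.180 (SD), again positive in 11 of 11 animals (permutation test, adjusted p = 0.00107). At intermediate cytosines it was 10.5 ± 0.953 percentage points (SD, n = 11) against 10.9 ± 0.995 (SD, n = 11), and the difference of -0.381 ± 0.70 (SD), positive in 4 of 11 animals, did not pass the threshold (permutation test, adjusted p = 0.101). Without the 4 libraries with the fewest ratios of exactly 0, this intermediate difference was -0.499 ± 0.688 (SD, n = 7, exact permutation test, adjusted p = 0.109). Animals thus differed more at low and high cytosines of unplaced sequence than of the pooled chromosomes, by less than 1 percentage point. Over cytosines of all levels, the mean SD over animals was 6.79 percentage points on unplaced sequence, below the 7.60 of chromosome 20 and above those of the other 19 chromosomes. The 74 larger scaffolds carried the excess at low cytosines: without them the difference was -0.107 ± 0.101 percentage points (SD, n = 11, permutation test, adjusted p = 0.0128), and with each run counted once it was 0.124 ± 0.208 (SD, n = 11, permutation test, adjusted p = 0.0879). The excess at high cytosines was 0.15 ± 0.151 without chromosome 10 (SD, n = 11, permutation test, adjusted p = 0.00859) and 0.0342 ± 0.142 without chromosomes 10 and 11 (SD, n = 11, permutation test, adjusted p = 0.467). At intermediate cytosines the difference passed the threshold, as lower on unplaced sequence, in 5 of 22 alternatives. It was -0.882 ± 0.686 without chromosome 10 (SD, n = 11, permutation test, adjusted p = 0.00477), -0.988 ± 0.681 without chromosomes 10 and 11 (adjusted p = 0.00107), and -0.901 ± 0.668 without the 74 larger scaffolds (adjusted p = 0.00469). The other 2 were -0.508 ± 0.640 with both strands of a CpG counted once (SD, n = 11, permutation test, adjusted p = 0.0312) and -0.523 ± 0.709 without animal 2666 (SD, n = 10, permutation test, adjusted p = 0.0469). Whether the intermediate difference passed therefore depended on chromosome 10, among other choices. Over 22 alternatives each, the adjusted p ran from 0.00107 to 0.0879 at low, to 0.946 at intermediate and to 0.467 at high cytosines.

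A cytosine with an SD over the 11 animals of at least 20 percentage points is called variable here. Of the unplaced cytosines 142 were variable (2.28%), beside 1.63% of all 61399 listed cytosines and 1.56% of those on chr1 to chr20. Among the 142 were 37 low, 89 intermediate and 16 high cytosines, or 1.01%, 8.89% and 1.04% of the unplaced cytosines of each class. On chr1 to chr20 the corresponding shares were 0.386%, 8.39% and 0.715%. Without chromosome 10 they were 0.406%, 9.46% and 0.903%, and without chromosomes 10 and 11 they were 0.406%, 9.70% and 0.968%. The unplaced share of low cytosines was thus well above each of these, with levels within the class not matched. Among high cytosines it was close to the share without chromosomes 10 and 11. Among intermediate ones it lay between the shares with and without chromosome 10. Without the 74 larger scaffolds the unplaced share was 1.66%, close to that of the whole table. Without the 4 libraries with the fewest ratios of exactly 0 it was 3.90%, beside 2.28% on chr1 to chr20, with the SD then taken over 7 animals. Of the 435 unplaced runs of at least 5 cytosines, 97 (22.3%) had an SD of the animal means of at least 5 percentage points, beside 18.2% of all 4762 such runs in the table. On chrUr 7 of 19 such runs reached it, and on the scaffolds 90 of 416 (21.6%). Of single cytosines, 3 of 366 were variable on chrUr (0.82%), below the share of the whole table, and 139 of 5857 on the scaffolds (2.37%). These shares describe the table and have no test.

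Pairs of animals were compared across cytosines. Over the 55 pairs, the Pearson correlation across the 6223 unplaced cytosines had a median of 0.949, with a range from 0.917 to 0.957, against a median of 0.962 across the 54584 cytosines on chr1 to chr20. These are correlations across cytosines that share libraries, and pairs share animals, so no p is given. In the median pair, 91.1% of the unplaced cytosines were within 20 percentage points of each other, and 92.7% of those on chr1 to chr20. The share was 91.2% on the scaffolds alone and 94.5% on chrUr, above that of chr1 to chr20. Without chromosome 10 the median share on the chromosomes was 92.5%.

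The 3 unplaced cytosines with the largest SD had ratios at both ends of the scale, beside neighbours that varied far less. The cytosine at position 14436 on the minus strand of scaffold12529 had a mean of 61.4% ± 34.8 (SD, n = 11), with 9.19% in the lowest animal, 80% in the median and 100% in the highest. It was below 30% in 4 animals (2666, 2646, 2673 and 2654) and above 70% in 7, and the nearest listed cytosine on its strand, 14 bp away, had an SD of 1.71. The cytosine at position 14595 on the same strand of the same scaffold had a mean of 64.8% ± 34.2 (SD, n = 11), with 8.51% in the lowest animal, 86.5% in the median and 93.6% in the highest. It was below 30% in 3 animals (2654, 2666 and 2673), all of which were low at position 14436 as well, while animal 2646 had 43.7%. The nearest listed cytosine on its strand was 8 bp away and had a mean of 96.4% with an SD of 4.10. The cytosine at position 10355 on the minus strand of scaffold11611 had a mean of 20.0% ± 33.6 (SD, n = 11), with 2.11% in the lowest animal, 4.59% in the median and 95.4% in the highest. It was high in only 2 animals, 95.4% in animal 2595 and 79.6% in animal 2646, and below 10% in the other 9. Its neighbour 4 bp away had a mean of 84.6% with an SD of 6.01. Whether a base difference between animals lies at these positions was not tested, since the sequence was not used.

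The 74 scaffolds with 20 or more cytosines covered the whole scale, with means over animals from 2.62% to 88.3%. By the class that held at least 80% of their cytosines, 23 scaffolds were low, 6 high and none intermediate, and the other 45 were mixed. Of the 45 mixed scaffolds, 30 held a run with a mean below 30% together with a run with a mean above 70%. A mean in the middle of the scale was therefore mostly an average of low and high stretches, and 5 scaffolds had at least 50% intermediate cytosines. The SD of the animal means had a median of 2.34 percentage points over the 74, was below 2 on 34 and at least 5 on 11. The 7 scaffolds with exactly 20 cytosines, just inside the threshold, had means from 2.62% to 88.3%, and the 8 with 19, just outside it, had means from 3.66% to 77.8%. The highest of the 11 animals was one of the 4 with the fewest ratios of exactly 0 on 44 of the 74 scaffolds and the lowest was one of them on 6. On the 23 low scaffolds the counts were 18 and 0, and the part of depth in them was not tested. Without these 4 libraries no mean of the 74 scaffolds and chrUr moved by more than the SD over animals, but 49 of these 75 means did without ratios of exactly 0 or 1, and 12 with both strands of a CpG counted once. All scaffold values that follow are the mean ± SD of the 11 animals in percent methylation.

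**Figure D4:**
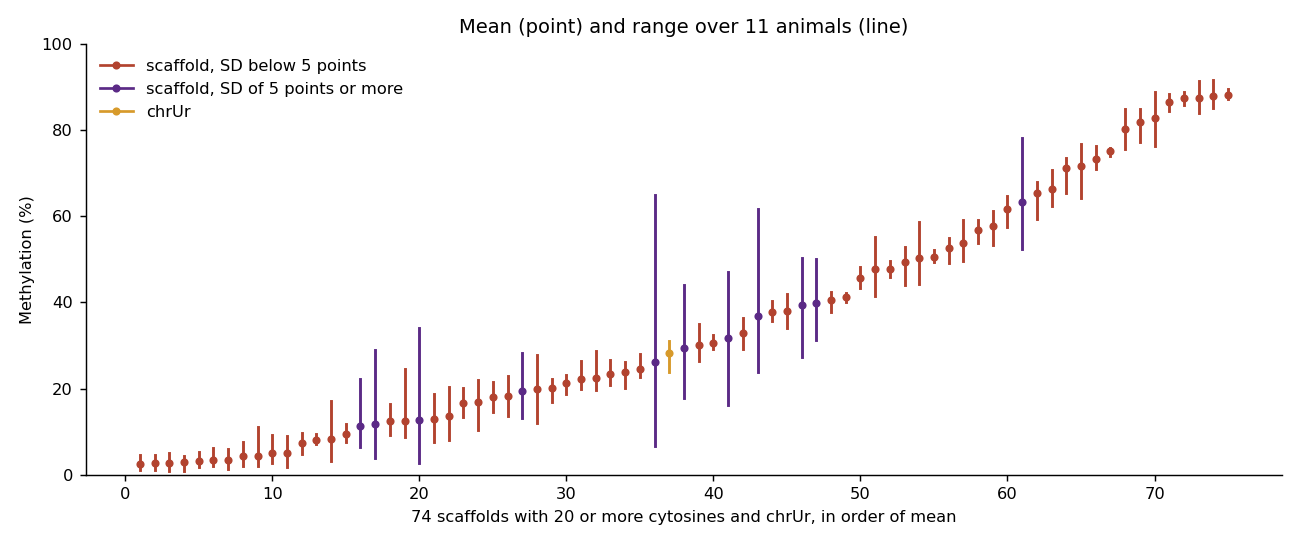
Methylation (vertical axis, %) of the 74 scaffolds with 20 or more cytosines and of chrUr, in order of their mean (horizontal axis, rank). Points are the mean of 11 animals and lines run from the lowest to the highest animal; 11 scaffolds with an SD of at least 5 percentage points are in purple. Means run from 2.62% to 88.3%, and the widest range is from 6.58% to 65.0%.

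Means below 10% were found on 15 scaffolds, on which 394 of 405 cytosines were low. The lowest was scaffold7201, whose 20 cytosines had a mean of 2.62% ± 1.15 (SD, n = 11), with 1.10% in the lowest animal, 2.66% in the median and 4.63% in the highest. It was followed by scaffold7244, with 2.64% ± 1.22 (SD, n = 11) over 20 cytosines in a single run of 144 bp, and with 1.01%, 2.12% and 4.56% in the lowest, median and highest animal. The next was scaffold3995, with 2.64% ± 1.24 (SD, n = 11) over 23 cytosines, and with 0.767%, 2.69% and 5.13% in the same order. Their animal ranges overlapped almost fully, so the order of these 3 is within the spread. All 27 cytosines of scaffold17426 were low, at 2.95% ± 1.18, and so were the 26 of scaffold5833, at 3.15% ± 1.19 in 161 bp.

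The other low scaffolds differed widely in span. On scaffold6089 the mean was 3.44% ± 1.20 over 22 cytosines in 5 runs, and on scaffold10892 it was 3.47% ± 1.66 over 23 in 4 runs. On scaffold7637 it was 4.28% ± 1.84 over 23 cytosines, and on scaffold8631 5.10% ± 1.68 over 23 cytosines that spanned 147540 bp. The low level was thus kept across separate runs of the same scaffold. The SD of scaffold8631 was 0.972 without animal 2666, which had 9.35% against 5.88% in the next animal. The 26 cytosines of scaffold1725, at 4.33% ± 2.84, reached 11.1% in animal 5296 and were between 1.95% and 7.03% in the other 10, whose SD was 1.83. A wider spread was also seen on scaffold15780, at 5.17% ± 2.67 over 25 cytosines, and on scaffold12968, at 8.20% ± 4.40 over 25. On scaffold12968 the animals ran from 3.10% to 17.2%, with the highest value in animal 5272. The last of the low scaffolds held single runs or cytosines above the rest: scaffold2774 had 7.34% ± 1.57 over 20 cytosines and scaffold11248 9.42% ± 1.32 over 37, of which 2 were high. On scaffold530, at 8.16% ± 0.893 over 65 cytosines, 21 cytosines from 27280 to 27363 had 2.84% ± 1.31 and 6 cytosines from 26293 to 26327 had 37.5% ± 9.55.

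Means from 10% to 20% were found on 13 scaffolds, and 4 of these had an SD of at least 5 percentage points. Among the steadier ones, scaffold8049 had 12.5% ± 2.58 over 28 cytosines, scaffold4862 had 18.1% ± 2.00 over 30, and scaffold283 had 16.6% ± 2.59 over 36. Low and high runs were both present on scaffold283, where run means went from 2.50% to 73.8%. On scaffold1743, at 18.4% ± 2.72 over 22 cytosines, run means went from 0.924% to 70.6%. The 27 cytosines of scaffold4888, at 12.9% ± 2.74, were spread over 10 runs, and the 21 of scaffold1218, at 13.7% ± 4.00, over 7. A single animal stood out on scaffold9978, at 12.5% ± 4.44 over 30 cytosines, where animal 2634 had 24.6% and the next 15.8%, and without it the SD was 1.99. Values over animals were more evenly spread on scaffold6878, at 16.8% ± 3.59 over 32 cytosines, and on scaffold8319, at 19.8% ± 4.85 over 45. Of this group, scaffold22163, scaffold17970, scaffold5240 and scaffold2722 had an SD of at least 5 and are described with the variable scaffolds.

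Means from 20% to 40% were found on 18 scaffolds, which included 2 of the 3 with the most cytosines. The most cytosines of any scaffold, 166, were on scaffold17075, at 29.3% ± 9.40 (SD, n = 11), with 17.8% in the lowest animal, 28.8% in the median and 44.1% in the highest. On scaffold383 there were 91 cytosines in 17 runs, at 22.5% ± 2.55 (SD, n = 11), with 19.6%, 22.2% and 28.8% in the lowest, median and highest animal. Low and high stretches alternated on scaffold383: 15 cytosines from 107629 to 107684 had 5.44% ± 3.55, while 5 from 61567 to 61607 had 84.3% ± 5.54. Animal 2634 was the highest there, with the next animal at 23.7%, and the SD without it was 1.52. The 35 cytosines of scaffold2028 had 20.1% ± 1.86 and no run above 70%. Low and high runs were both present on 3 scaffolds with similar means: scaffold668 with 21.4% ± 1.44 over 25 cytosines, scaffold5967 with 22.3% ± 1.72 over 28, and scaffold8331 with 23.4% ± 1.74 over 24. On scaffold8331 run means went from 2.80% to 94.6%, and none of its cytosines was intermediate. The same held for scaffold5967, with run means from 3.01% to 90.5%, and its SD was 1.12 without animal 2606.

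Low and high runs also occurred on the next 2 scaffolds by mean, where scaffold5302 had 23.9% ± 1.83 over 23 cytosines and scaffold6203 had 24.7% ± 1.54 over 23. The 26 cytosines of scaffold5913 had 30.1% ± 3.06, and the 26 of scaffold56 had 30.7% ± 0.992, with run means on scaffold56 from 2.14% to 94.9%. On scaffold1949 the mean was 32.9% ± 2.72 over 36 cytosines in 10 runs. On scaffold1531, with 55 cytosines in 21 runs at 37.9% ± 1.58, run means went from 0.337% to 96.4%. On scaffold5754, at 38.0% ± 2.17, 16 cytosines were low and 12 high, and none was intermediate. The means of these scaffolds thus gave the proportion of low to high stretches and not a level that many cytosines had. The remaining 5 scaffolds of this group other than scaffold17075 (scaffold13661, scaffold20917, scaffold804, scaffold6085 and scaffold4007) are described with the variable ones.

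Means from 40% to 60% were found on 12 scaffolds, none with an SD of 5 percentage points or more, and they fell into 2 kinds. Most of them held both low and high runs. The 72 cytosines of scaffold1058, at 40.6% ± 1.42, formed 15 runs over 424248 bp, of which 10 had a mean below 30% and 4 a mean above 70%. On scaffold34, at 41.2% ± 0.663 over 51 cytosines, 7 cytosines from 63230 to 63359 had 94.4% ± 3.00 and 7 from 88554 to 88590 had 3.12% ± 0.930. On scaffold2817, at 45.6% ± 1.67 over 62 cytosines, run means went from 1.02% to 97.9%. The 2 levels were cleanly separated on scaffold2811, at 50.6% ± 0.775, where 25 cytosines from 44484 to 44791 had 86.9% ± 1.59 and all 4 other runs had means below 4%. Low and high runs were likewise found on scaffold6182, at 47.8% ± 1.14 over 39 cytosines, and on scaffold217, at 49.3% ± 2.35 over 45. They were found on scaffold244, at 52.6% ± 1.96 over 24 cytosines, on scaffold6585, at 53.9% ± 3.26 over 31, and on scaffold7666, at 56.8% ± 1.45 over 40.

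The other kind consisted mainly of intermediate runs. On scaffold20466, at 50.3% ± 4.48 over 65 cytosines within 420 bp, 50 cytosines were intermediate, and the animals ran from 44.3% over 50.5% to 58.8%. On scaffold16403, at 47.7% ± 4.05, 15 of 21 cytosines in a single run of 127 bp were intermediate, and the animals ran from 41.6% over 47.3% to 55.1%. On both scaffolds animal 2624 was the lowest, and animals 5296 and 2666 were the 2 highest. On scaffold10980, at 57.7% ± 2.65 over 23 cytosines, 6 of 7 runs had means between 30% and 70%, but 11 of its cytosines were high. Intermediate means over all listed cytosines of a scaffold, from 1 or 2 runs, were thus present in all 11 animals on scaffold20466 and scaffold16403.

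Means from 60% to 80% were found on 8 scaffolds, mostly with low runs among high ones. On scaffold10527, at 61.7% ± 2.54 over 22 cytosines, 4 runs had means below 30% and 4 above 70%. On scaffold1309, at 65.4% ± 2.61 over 38 cytosines, 3 runs were low and 7 high. The 29 cytosines of scaffold4646, at 66.3% ± 2.43, included 15 intermediate ones. The level was split cleanly on scaffold5338, at 71.2% ± 2.33, with 5 low and 15 high cytosines, and on scaffold3881, at 75.1% ± 0.563, with 5 low and 19 high. On scaffold5338 animal 2606 had 65.3%, and the others had from 69.5% to 73.6%. Of all 74 scaffolds, scaffold3881 had the smallest SD over animals. On scaffold6764, at 71.6% ± 3.53 over 40 cytosines, run means went from 0% to 98.3%. No low cytosine was listed on scaffold11267, at 73.2% ± 1.68 over 43 cytosines, where 14 from 626 to 794 had 68.7% ± 2.31 and 29 from 2354 to 2465 had 75.4% ± 1.57. The remaining scaffold of this range, scaffold16797, is described with the variable ones.

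Means above 80% were found on 8 scaffolds, on which 237 of 268 cytosines were high. The highest was scaffold10597, whose 20 cytosines in 148 bp were all high, at 88.3% ± 0.646 (SD, n = 11), with 87.3% in the lowest animal, 88.3% in the median and 89.5% in the highest. The next was scaffold10695, at 87.9% ± 1.90 (SD, n = 11) over 23 cytosines in 240 bp, with 85.2%, 87.5% and 91.7% in the lowest, median and highest animal. It was followed by scaffold4322, at 87.6% ± 2.07 (SD, n = 11) over 26 cytosines in 4 runs, with 84.0%, 87.7% and 91.5% in the same order. The ranges of these 3 overlapped, and the first had the smallest spread. The most cytosines of a high scaffold, 111, were on scaffold12529, at 87.4% ± 1.07 (SD, n = 11), with 85.9%, 87.3% and 88.8% in the lowest, median and highest animal. Its 6 runs had means between 83.0% and 94.4%, although 2 of its cytosines were low and 10 intermediate. Lower in this range, scaffold12570 had 80.2% ± 2.41 over 25 cytosines, scaffold21232 81.9% ± 2.36 over 21 in 87 bp, and scaffold5696 82.9% ± 3.26 over 22 in 150 bp. On scaffold7709, at 86.5% ± 1.33, 18 of 20 cytosines were high and 2 low.

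On 11 scaffolds the SD of the animal means was at least 5 percentage points, and the highest animal was not the same on all of them. The largest spread was on scaffold13661, where 89 cytosines had a mean of 26.1% ± 16.8 (SD, n = 11), with 6.58% in the lowest animal, 26.5% in the median and 65.0% in the highest. Animal 2595 had the highest value there, the next, animal 5296, had 37.5%, and animals 2634, 2673 and 2666 had less than 10%. The 3 longest of its 4 runs had similar values, 28.7% ± 16.4, 25% ± 18.0 and 27.4% ± 16.7, and animal 2595 was the highest in each, at 67.5%, 66.7% and 61.7%. Without animal 2595 the mean of scaffold13661 was 22.2% ± 11.3 (SD, n = 10), so the spread remained above 10 percentage points. The next largest spread was on scaffold804, at 36.8% ± 10.4 (SD, n = 11) over 51 cytosines, with 23.9%, 35.7% and 61.6% in the lowest, median and highest animal, the highest again being animal 2595. On this scaffold the spread differed between runs, with 22.8% ± 17.2 at 24 cytosines from 664 to 709 and 22.3% ± 17.1 at 2 cytosines from 22589 to 22619, but 58.0% ± 1.78 at 9 cytosines from 6754 to 6794. Without animal 2595 its mean was 34.3% ± 6.74 (SD, n = 10). The SD of scaffold804 thus fell by more than 1.5 times without this animal, while that of scaffold13661 fell by less. The order of the animals was the same on both scaffolds, except that animals 2624 and 5295 exchanged places. The 2 scaffolds may therefore not be separate observations, which was not tested.

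After these in spread came scaffold22163, at 12.7% ± 9.75 (SD, n = 11) over 48 cytosines, with 2.75% in the lowest animal, 8.80% in the median and 34.0% in the highest. Here animals 5295 and 2606 stood above the others, at 34.0% and 27.6%, and the next animal had 15.2%. The 166 cytosines of scaffold17075, whose animal values are given above, did not vary equally along its length. Its run of 104 cytosines from 2088 to 2646, the longest on unplaced sequence, had 23.1% ± 11.5 with a range from 9.46% to 41.9%, and its 40 cytosines from 50 to 256 had 27.4% ± 8.73, whereas 8 cytosines from 9932 to 9975 had 84.4% ± 1.93. Animals 2654, 2673 and 2646 were the highest on scaffold17075, at 44.1%, 42.9% and 39.5%, and the next animal, 2666, had 31.2%. On scaffold20917 all 47 cytosines formed a single run of 227 bp at 31.7% ± 9.20, from 16.3% in animal 2624 to 47.1% in animal 5296. On scaffold16797, at 63.4% ± 8.07 over 33 cytosines, 14 cytosines from 641 to 726 had 49.8% ± 11.1 and 18 from 178 to 289 had 74.5% ± 5.91. Its animal values ran from 52.5% to 78.3%. The 24 cytosines of scaffold17970, all low in their mean over animals, had 11.7% ± 6.68, and animal 2673 with 28.9% stood above the next at 15.7%. Without animal 2673 they had a mean of 9.98% ± 3.65 (SD, n = 10), so this spread rested on that animal.

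The last 4 of the 11 had the smallest SD among them. On scaffold6085, at 39.4% ± 6.64 over 33 cytosines, 13 cytosines from 12042 to 12083 had 61.7% ± 15.5, while 7 from 15413 to 15480 had 3.48% ± 2.15. On scaffold2722, at 19.5% ± 5.71 over 31 cytosines, animals 2595, 5296 and 5272 had 28.2%, 27.8% and 27.0%, and the others from 13.1% to 20.2%. On scaffold5240, at 11.3% ± 5.52 over 23 cytosines, animals 2624 and 2606 had 22.1% and 21.5%, and the others from 6.48% to 12.5%. On scaffold4007, at 39.9% ± 5.37 over 20 cytosines, animals 2666 and 5295 had 50.1% and 47.4%, and the lowest animal had 31.2%. Across the 11 variable scaffolds, animal 2595 was the highest on 3 and the lowest on 4, and animal 2666 was the highest on 2 and the lowest on 2. The scaffolds with animal 2595 highest include scaffold13661 and scaffold804, which had nearly the same order of animals. No animal was therefore high or low on all 11 scaffolds. Whether near-identical copies elsewhere in the genome contributed reads to these scaffolds was not tested.

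**Figure D5:**
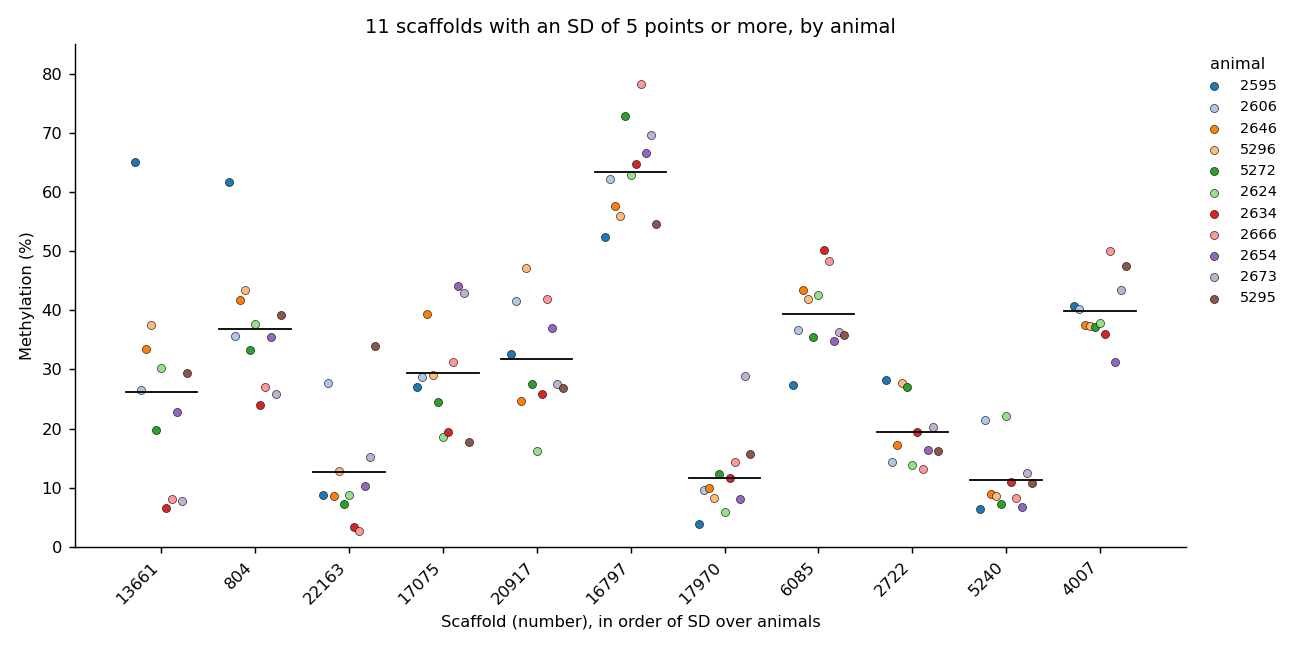
Methylation (vertical axis, %) of each of the 11 animals on the 11 scaffolds with an SD of at least 5 percentage points, in order of that SD (horizontal axis, scaffold number). Points are animals in separate colours and lines the mean. Animal 2595 is at 65.0% on scaffold13661 and at 61.6% on scaffold804, above every other animal there, and at 3.91% on scaffold17970, below every other animal.

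Variable runs were also found on scaffolds with fewer than 20 cytosines. The largest SD of any unplaced run of at least 5 cytosines was on scaffold7911, where 5 cytosines from 54977 to 54989 had a mean of 26.9% ± 23.5 (SD, n = 11), from 0% in animal 2673 to 82.9% in animal 2595. The size of this SD depended in part on animal 2595, and its first place may do so too. The SD without that animal is not given. On scaffold18673, 5 cytosines from 393 to 445 had a mean of 29.8% ± 16.9 (SD, n = 11), from 1.67% in animal 2673 to 54.1% in animal 5272. On scaffold9090, 7 cytosines from 5055 to 5122 had a mean of 37.0% ± 15.9 (SD, n = 11), from 4.90% in animal 2634 to 58.0% in animal 2595. These 3 runs were chosen after their values were seen, as those with the largest SD on scaffolds with fewer than 20 cytosines, and they are a description with no test.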

How the data were processed

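The unit is the methylation ratio of each cytosine in each animal, as deposited; the authors trimmed and aligned the reads, counted them per cytosine, kept cytosines with a coverage of at least 10 reads, and computed the ratios. The ratios were used without further scaling. Unplaced cytosines are all cytosines on a sequence whose name begins with scaffold or is chrUr, and scaffolds with 20 or more listed cytosines are each described. This set and these lists were chosen with earlier results of these data known. The 12 tests compare paired values of 11 animals by a two-sided permutation test over all sign changes, with Benjamini-Hochberg adjustment over the 12 tests. The cytosines are the same in every animal, so the tests do not measure how a difference would vary with other sequences. Low, intermediate and high mean below 0.3, from 0.3 to 0.7 and above 0.7. Alternatives changed the class bounds, the counting of strands, runs and sequences, the chromosomes compared, and the animals. The code was tested on simulated data with known differences. Python 3.11.15, numpy 2.4.6, pandas 2.3.3 and matplotlib 3.10.9 were used.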

Additional observations from a re-analysis of the deposited data

How the results depend on the processing

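Of 245 alternatives of the 12 tested results, 226 kept direction and call, 3 were weaker, 5 stronger and 11 reversed. The shares from 0.3 to 0.7, above 0.7 and of exactly 1, and the lower mean of chrUr, kept both under every alternative run, but not their size. No alternative left out chrUr together with chromosomes 10 and 11. In mean methylation the difference was 0.0124 with each scaffold and chromosome counted once and 0.877 without chromosomes 10 and 11. For the share below 0.3 it was -2.59 with sequences counted once, -1.01 without chromosome 10 and -2.79 without chromosomes 10 and 11. For the share of exactly 0 it was 0.105 with runs counted once and 1.54 without scaffolds with 20 or more cytosines. Between neighbours it was 0.564 without chromosome 10 and 0.944 without chromosomes 10 and 11. Between strands it was -0.415 without the larger scaffolds. For the difference from other animals at low cytosines it was 0.124 with runs counted once and -0.107 without the larger scaffolds, and at high cytosines it was 0.0342 without chromosomes 10 and 11. At intermediate cytosines it was 0.155 with runs counted once, -0.508 with strands counted once, -0.882 without chromosome 10, -0.988 without chromosomes 10 and 11 and -0.901 without the larger scaffolds, and from -0.523 to -0.277 with each animal left out in turn, passing the threshold only without animal 2666. The cause of these changes was not tested.

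The share of variable cytosines moved to 3.90% without the 4 animals with the fewest ratios of exactly 0, and was from 1.94% to 2.64% with each animal left out. Leaving these 4 out, and all alternatives of variable cytosines and of single scaffolds, were chosen after seeing the data. Of 75 means (74 scaffolds and chrUr), 49 moved by more than 1 SD without ratios of exactly 0 or 1 and 12 with strands counted once. All 12 tests are paired within animals, no pairing between groups applies because there is 1 group, and a coverage minimum of 20 or 30 was not run because only ratios were used. Depth, sequence copies and base differences between animals were not tested.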
